A study of Homo sapiens with 30 samples.

Results

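ORM1, ORM2, F5 and AZGP1 encode secreted plasma proteins, and they are described here in LNCaP cells across 5 doses of the androgen R1881. They are 4 of the 37843 genes in the count table, were matched by Ensembl identifier, and were chosen by their counts in these same libraries, in part for rises from near silence with the dose. Their levels and fold changes are therefore a description with no test. All 4 passed the filter on low counts, with which 18403 genes were tested. ORM1 and ORM2, with 1 count in each vehicle library, passed it only through the libraries of higher doses. LNCaP is a human prostate cancer line that responds to androgen, first grown from a lymph node metastasis, and R1881 is a synthetic androgen. The cells were grown in hormone-depleted serum and then received vehicle or R1881 at 0.03, 0.06, 0.1 or 10 nM for 24 h, with 3 libraries of messenger RNA in each of the 5 groups, numbered 2, 3 and 4. The question of the series is which gene programs low and high doses of androgen turn on. All libraries came from 1 cell line in culture, and the labels do not say whether the libraries of a group came from separate cultures.

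The orosomucoids ORM1 and ORM2 (alpha-1-acid glycoproteins) are acute-phase proteins of the lipocalin family that the liver releases into blood, more of them in inflammation, and that carry basic drugs and other small lipophilic molecules. Coagulation factor V, the product of F5, is the cofactor of factor Xa in the complex that turns prothrombin into thrombin. It is made mainly in the liver and is also carried in platelets. AZGP1 encodes zinc-alpha-2-glycoprotein, a soluble protein with the fold of MHC class I heavy chains that is found in plasma and seminal fluid, is made by several secretory epithelia including that of the prostate, and is linked to lipid breakdown in fat cells.

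On GRCh38 with GENCODE 29, ORM1 (ENSG00000229314.6) lies at chr9:114323056-114326475 on the plus strand and ORM2 (ENSG00000228278.5) at chr9:114329869-114333252 on the same strand, 3393 bases further on. F5 (ENSG00000198734.12) lies at chr1:169514166-169586588 and AZGP1 (ENSG00000160862.13) at chr7:99966720-99976157, both on the minus strand. The principal transcripts have 6 exons and 802 bases for ORM1, 6 exons and 760 bases for ORM2, 25 exons and 7024 bases for F5, and 4 exons and 1307 bases for AZGP1. None of the 4 overlaps another gene of the table. The coding sequences of ORM1 and ORM2 were identical at 572 of 603 positions (94.9%), and 18 of the 31 differences fell within 90 bases, coding positions 314 to 403. These 90 bases are shown because they are where reads tell the pair apart most readily. They lie at chr9:114324074-114324864 in ORM1, with an intron of 701 bases between them, and at chr9:114330848-114331641 in ORM2, with one of 704 bases, on GRCh38, plus strand. Capitals mark the bases that differ.
ORM1: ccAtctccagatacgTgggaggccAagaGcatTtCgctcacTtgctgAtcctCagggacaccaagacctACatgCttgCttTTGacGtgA
ORM2: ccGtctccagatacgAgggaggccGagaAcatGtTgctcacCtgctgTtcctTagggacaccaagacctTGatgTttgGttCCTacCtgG
Short reads that cover no difference cannot tell the pair apart. Of the 50-base windows of the ORM1 transcript, 47.4% also occurred in that of ORM2, and 50.2% of those of ORM2 occurred in that of ORM1. With 100-base windows these shares were 33.7% and 35.9%. How the authors counted reads that match both is not given in the sources used here, so the values of each orosomucoid alone are uncertain.

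The 250 bases before the transcription start given by RefSeq are shown next for the 3 members matched in RefSeq's promoter table (GRCh38.p14), since the levels of these genes went up over the same doses. The windows are chr9:114322848-114323097 (plus strand) for ORM1, chr1:169586482-169586731 (minus strand) for F5 and chr7:99976032-99976281 (minus strand) for AZGP1, and each sequence is written 5′ to 3′ on the strand of its gene. RefSeq starts all 3 genes further downstream than GENCODE 29 does, so each window ends inside the gene by the GENCODE coordinates given above. Capitals mark the letters TATAAA.
ORM1: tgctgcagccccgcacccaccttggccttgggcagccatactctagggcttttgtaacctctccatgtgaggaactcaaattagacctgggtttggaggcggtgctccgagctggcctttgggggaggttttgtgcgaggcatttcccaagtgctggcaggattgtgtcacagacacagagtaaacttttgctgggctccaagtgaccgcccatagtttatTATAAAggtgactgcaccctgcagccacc
F5: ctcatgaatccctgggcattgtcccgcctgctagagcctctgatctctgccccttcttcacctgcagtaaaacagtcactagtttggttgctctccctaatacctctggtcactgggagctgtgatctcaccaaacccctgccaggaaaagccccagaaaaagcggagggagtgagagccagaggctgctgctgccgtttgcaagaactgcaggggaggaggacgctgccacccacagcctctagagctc
AZGP1: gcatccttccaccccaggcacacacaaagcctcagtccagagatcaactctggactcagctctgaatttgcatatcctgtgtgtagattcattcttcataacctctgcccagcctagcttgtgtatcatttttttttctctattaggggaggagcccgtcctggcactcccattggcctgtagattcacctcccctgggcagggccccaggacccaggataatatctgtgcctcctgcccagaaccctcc
Both strands were searched for AGAACA (a partial steroid response element), the full palindromic element made of 2 such sites with 3 free bases between them, TTGCNNAA (the C/EBP core), TGTTTAC (forkhead) and TATAAA (the core of a TATA box). AGAACA overlaps the full element. The one match was TATAAA in ORM1, 29 bases before the RefSeq start and inside the gene by GENCODE 29. Of 34796 promoters of the same length, 10.8% held TATAAA, 12.4% AGAACA, 9.05% TTGCNNAA, 2.98% TGTTTAC and 0.00287% the full element. These matches are a description of the letters in the windows.

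Total counts ran from 30666460 to 61199483 per library. Prostate luminal markers were present in every group, with 10 of 10 at 1 CPM or more and a summed level of 4894 to 5026 CPM in vehicle and 14709 to 15021 CPM at 10 nM. Here CPM are counts per 1000000 reads counted, after TMM scaling. KLK3, which encodes prostate-specific antigen and is a standard androgen target, stood at 103 ± 7.65 CPM in vehicle and 3855 ± 79.6 CPM at 10 nM (SD, n = 3). The summed level of 16 hepatocyte markers did not go up with the 4 genes, at 48.3 to 56.0 CPM in vehicle and 32.8 to 34.5 CPM at 10 nM. Of the 16, 2 (TTR and CPS1) were at 1 CPM or more. TTR was at 1.32 CPM in vehicle and 1.33 CPM at 10 nM, so most of the sum came from CPS1. APOC3, FETUB, TAT and SERPINA6 had 0 counts in vehicle, and APOA2, FETUB, GC and TAT had 0 counts at 10 nM. Of the leukocyte and endothelial markers VWF alone reached 1 CPM, and no platelet marker did. The 5 libraries numbered 3 had 9.31% to 10.7% of their counts in mitochondrially encoded genes, against 6.14% to 7.69% in the others. In bulk RNA, fewer cells that express a gene and less RNA of it per cell cannot be told apart.

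ORM1 had 1 count in each vehicle library. Its libraries 2, 3 and 4 held 1, 0 and 3 counts at 0.03 nM, 5, 3 and 3 at 0.06 nM, 15, 28 and 12 at 0.1 nM, and 202, 376 and 251 at 10 nM. Vehicle and 0.03 nM overlapped, and each later dose lay above the dose before it in every library. The 0 in library 3 at 0.03 nM allows up to 0.0858 CPM (3 counts in that library), which is within the range of the 0.06 nM libraries. In CPM (SD, n = 3) the means were 0.0229 ± 0.000643 in vehicle, 0.0275 ± 0.0297 at 0.03 nM, 0.0999 ± 0.0219 at 0.06 nM, 0.449 ± 0.140 at 0.1 nM and 6.21 ± 0.824 at 10 nM.

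Because the 3 vehicle libraries held 3 counts of ORM1 together, its distance from vehicle is given as a ratio of pooled counts per effective library size, with an exact 95% interval that covers counting error only. At 0.06 nM the ratio was 4.39 (interval 1.16 to 24.5), at 0.1 nM 20.2 (6.56 to 101), and at 10 nM 275 (93.8 to 1337). The interval at 0.03 nM, 0.231 to 9.30 around a ratio of 1.36, spans equality. Between 0.1 and 10 nM, where 55 and 829 counts were compared, the ratio was 13.6 (10.4 to 18.2).

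ORM2 also had 1 count in each vehicle library. Its libraries 2, 3 and 4 held 1, 5 and 4 counts at 0.03 nM, 9, 13 and 14 at 0.06 nM, 30, 45 and 31 at 0.1 nM, and 334, 523 and 357 at 10 nM. Every dose lay above the one before it, but at 0.03 nM by no more than library size for library 2, which held 1 count like the vehicle libraries. The means were 0.0229 ± 0.000643 CPM in vehicle, 0.0818 ± 0.0598 at 0.03 nM, 0.338 ± 0.107 at 0.06 nM, 0.888 ± 0.112 at 0.1 nM and 9.17 ± 0.457 at 10 nM (SD, n = 3). The count ratio to vehicle was 3.41 at 0.03 nM (interval 0.877 to 19.3), 14.4 at 0.06 nM (4.54 to 72.9) and 38.9 at 0.1 nM (12.97 to 192), and that of 10 nM to 0.1 nM was 10.3 (8.48 to 12.7).

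Of the counts of both orosomucoids together, ORM2 took 76.6% at 0.06 nM (36 of 47 counts, exact binomial 95% interval 62.0% to 87.7%), 65.8% at 0.1 nM (58.0% to 73.1%, of 161 counts) and 59.4% at 10 nM (57.3% to 61.6%, of 2043 counts). By library the share was 62.3%, 58.2% and 58.7% at 10 nM, below the 64.3%, 81.3% and 82.4% of the 0.06 nM libraries, where 14 to 17 counts lay behind each share. The 0.1 nM libraries, at 66.7%, 61.6% and 72.1%, overlapped both. In vehicle the share could not be measured, with 6 counts in all.

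F5 was low but measurable without androgen, at 0.422, 1.09 and 0.785 CPM in vehicle libraries 2, 3 and 4 (101 counts together). It stood at 2.67, 4.29 and 2.64 CPM at 0.03 nM, 13.04, 11.4 and 9.57 at 0.06 nM, 22.2, 22.7 and 21.2 at 0.1 nM, and 89.7, 75.5 and 82.0 at 10 nM. No 2 neighbouring dose groups overlapped. The spread was widest in vehicle, where the highest library was 2.58 times the lowest, and 1.07 times at 0.1 nM. The log2 difference from vehicle was 2.02 ± 0.25 (SE) at 0.03 nM, 3.88 ± 0.22 at 0.06 nM, 4.83 ± 0.21 at 0.1 nM and 6.73 ± 0.20 at 10 nM, the last a 106.5-fold difference. Between 0.1 and 10 nM it was 1.90 ± 0.14.

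AZGP1 was not near silence without androgen, although it was chosen with genes that were. Its vehicle libraries 2, 3 and 4 held 10.8, 13.6 and 11.6 CPM (462, 611 and 504 counts). The libraries stood at 18.0, 25.7 and 24.4 CPM at 0.03 nM, 28.1, 32.7 and 33.2 at 0.06 nM, 35.98, 37.4 and 40.9 at 0.1 nM, and 89.2, 98.4 and 107 at 10 nM. Neighbouring dose groups did not overlap. The log2 difference from vehicle was 0.91 ± 0.12 (SE) at 0.03 nM, 1.38 ± 0.12 at 0.06 nM, 1.66 ± 0.12 at 0.1 nM and 3.03 ± 0.12 at 10 nM, where it was 8.18-fold. Between 0.1 and 10 nM it was 1.37 ± 0.11.

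**Figure D1:**
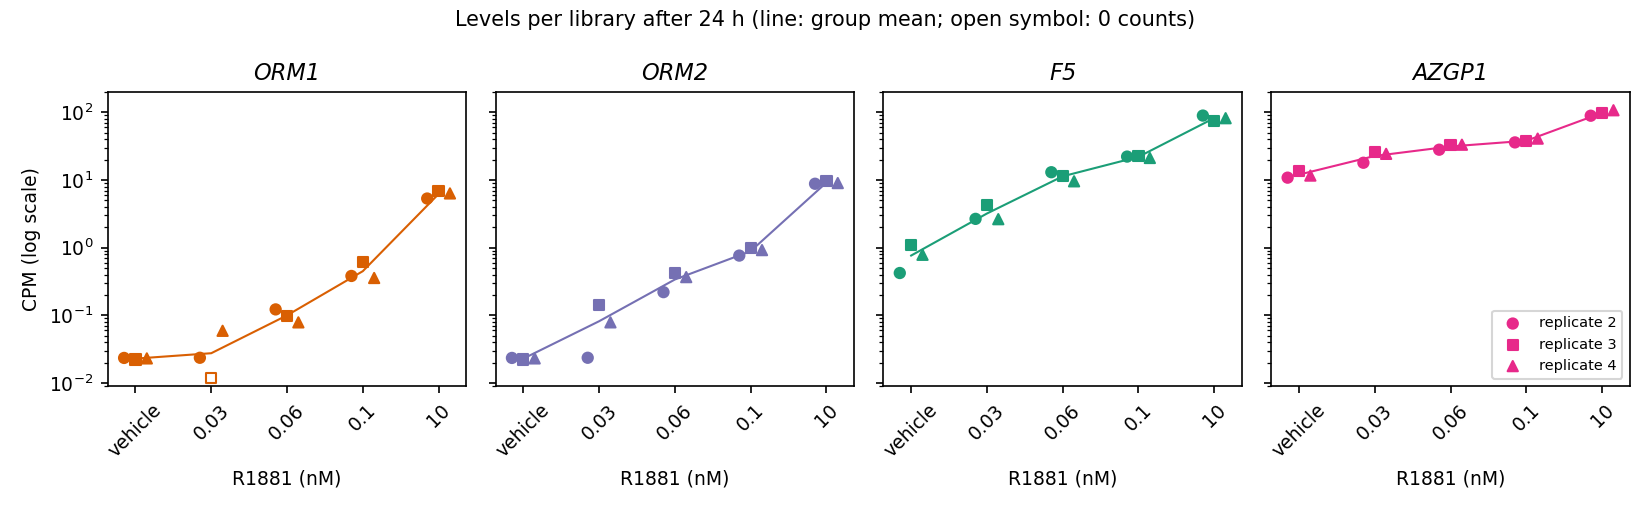
Levels of ORM1, ORM2, F5 and AZGP1 in each of the 15 libraries, in CPM on a log axis, against the R1881 dose, whose steps are drawn evenly spaced. Symbols mark the replicate number, lines join the means of the 3 libraries of a group, and the open symbol stands for the library with 0 counts, drawn at an arbitrary low height. The orosomucoids begin at 1 count per library, F5 at 0.422 to 1.09 CPM and AZGP1 at 10.8 to 13.6 CPM.

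By the rule used for all genes (edgeR, adjusted p under 0.05), 2 of the 4 members were called higher at 0.03 nM, where 5.47% of all tested genes were. The 2 not called were ORM1 and ORM2. All 4 were called at 0.06 nM (16.9% of all genes), 0.1 nM (21.5%), 10 nM (29.3%) and in 10 nM against 0.1 nM (20.6%). The rule that chose the members used these contrasts, so nothing is read from the counts. The call of ORM1 at 0.06 nM, which compares 11 counts with 3, was lost with DESeq2, without a low-count filter, without the 5 libraries numbered 3, and when any 1 of the 6 libraries of those groups was left out.

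The genes differed in how much of their CPM difference was present at the lower doses. As a share of the CPM difference between vehicle and 10 nM, taken within libraries of the same number, ORM1 had reached 1.28% ± 0.516 at 0.06 nM and 6.84% ± 1.60 at 0.1 nM (SD, n = 3). ORM2 had reached 3.42% ± 1.04 and 9.44% ± 0.880. F5 stood higher at both doses, at 12.95% ± 1.85 and 26.2% ± 2.47. AZGP1 was highest of the 4, at 22.4% ± 0.341 and 30.2% ± 2.01, and KLK3 was above all of them, at 37.3% ± 1.85 and 52.9% ± 1.36. At 0.1 nM the libraries of ORM1 (5.28% to 8.47%) and ORM2 (8.43% to 9.98%) overlapped slightly, those of F5 (24.4% to 29%) and AZGP1 (28.1% to 32.1%) also overlapped, and the orosomucoids lay below the other pair. Already at 0.03 nM AZGP1 had 12.2% ± 2.73 of its difference, against 3.03% ± 1.11 for F5 and 0.624% ± 0.625 for ORM2. These are shares of a linear difference, and the order depends on that scale. The fitted log2 difference from vehicle at 0.1 and 10 nM was 4.83 and 6.73 for F5, and 1.66 and 3.03 for AZGP1. On the log2 scale F5 had thus covered the larger part of its rise at 0.1 nM.

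For comparison, 312 genes were called, at least 4-fold higher at 10 nM than in vehicle and at 1 CPM or more at 10 nM, the 4 members among them. From group means, their median share at 0.1 nM was 26.6%, with quartiles of 14.1% and 45.9%. Of these genes, 28 had a lower share than ORM1, 41 than ORM2, 153 than F5 and 173 than AZGP1. At 0.1 nM F5 and AZGP1 thus sat near the middle of the genes with such rises, and the orosomucoids below their lower quartile. At 0.03 nM 120 genes had a lower share than F5 and 231 than AZGP1, and at 0.06 nM 150 and 210. Ranked by the fitted log2 difference between 10 and 0.1 nM among all 18403 genes tested, ORM1 came at place 13, ORM2 at 18, F5 at 146, AZGP1 at 300 and KLK3 at 722. The members were chosen for rises over these doses, and the orosomucoids passed the filter only through the higher ones. High places follow in part from that choice, so nothing is read from them.

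**Figure D2:**
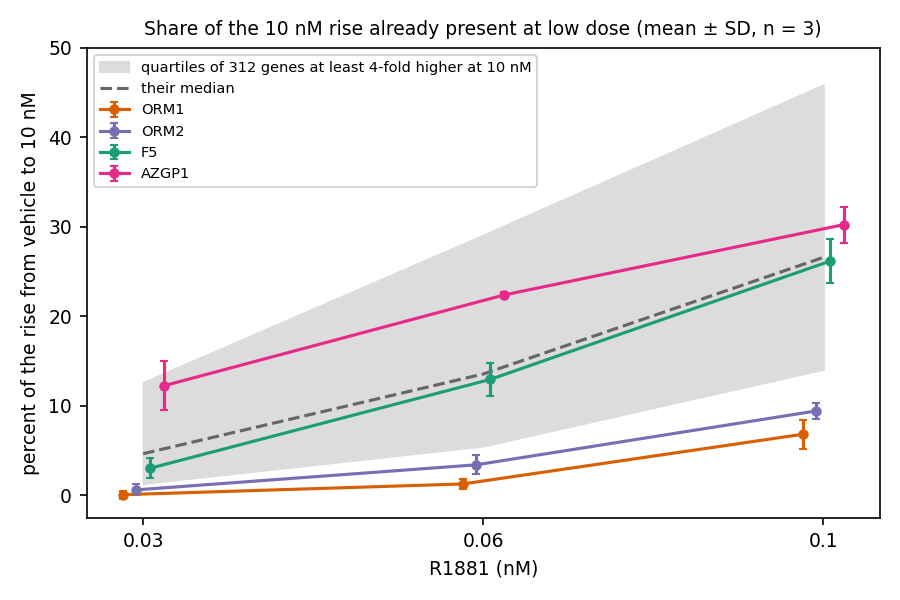
Percent of the CPM difference between vehicle and 10 nM that was present at 0.03, 0.06 and 0.1 nM (evenly spaced axis), as mean ± SD over 3 libraries paired by number. The grey band spans the quartiles and the dashed line the median of 312 genes at least 4-fold higher at 10 nM. At 0.1 nM ORM1 and ORM2, at 6.84% and 9.44%, lie below the band, and F5 and AZGP1, at 26.2% and 30.2%, lie within it.

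Per kilobase of principal transcript, AZGP1 was the most abundant of the 4 in every group, at 9.19 ± 1.07 CPM per kb in vehicle and 75.2 ± 6.97 at 10 nM (SD, n = 3). At 10 nM ORM2 stood at 12.1 ± 0.602 and F5 at 11.7 ± 1.01 CPM per kb, which did not differ beyond their spread, and ORM1 at 7.74 ± 1.03. In vehicle F5 stood at 0.109 ± 0.0475, above the 1-count levels of ORM1 (0.0286) and ORM2 (0.0301). KLK3 on the same scale was at 2635 ± 54.4 CPM per kb at 10 nM.

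Over the 15 libraries Pearson's r of log2 CPM (prior count 2) between members ran from 0.876 for ORM1 and F5 to 0.974 for ORM2 and AZGP1. The points share the 5 doses, and all members were chosen for a rise over them. Among 13537 other genes with a symbol and at least 1 CPM in a group, the patterns most like ORM1 were those of NDFIP2, an adaptor of Nedd4-family ubiquitin ligases (r = 0.992), LRRFIP2 and ZNG1A. For ORM2 they were OTULINL (0.995), DBI, which binds acyl-CoA, and STARD3NL, a protein of late endosomes. For F5 they were the fatty acid elongase ELOVL7 (0.994), the lysophospholipid acyltransferase MBOAT2 and MPC2, a subunit of the mitochondrial pyruvate carrier. For AZGP1 they were the lysosomal sulfatase ARSG (0.993), HEBP2 and LPAR3, a receptor for lysophosphatidic acid.
By Spearman's rho the order differed, with LRRFIP2 at place 248 and ZNG1A at 679 for ORM1. Likeness was common: 514 genes had an r of at least 0.95 with ORM1, 588 with ORM2, 336 with F5 and 421 with AZGP1. The like genes began from higher levels than the orosomucoids and F5. OTULINL stood at 8.58 ± 0.936 CPM in vehicle and 121 ± 12.8 at 10 nM, ELOVL7 at 18.6 ± 3.72 and 255 ± 17.1, and ARSG at 11.7 ± 1.47 and 37.7 ± 1.51 (SD, n = 3). They were picked for their likeness in these libraries, so no test is given.

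Genes related to the 4 members were taken from 7 lists, 154 genes in all, of which 136 were in the table and 69 passed the filter. At 10 nM against vehicle 19 of the 69 rose and 27 fell (edgeR, adjusted p under 0.05), where 29.3% of all genes rose and 28.3% fell. The median log2 difference was -0.23 over the lists and -0.01 over all genes. At 0.06 nM 15 rose and 20 fell (16.9% and 14.3% of all genes), and 18 rose and 21 fell at 0.1 nM (21.5% and 20.6%). All doses were compared with the same vehicle libraries. With library totals in place of TMM factors the median of all genes at 10 nM moved to -0.22, and 3069 genes were called higher and 7987 lower in place of 5399 and 5209. At 10 nM that scaling turned the direction of no list gene or neighbour called and named below, and ended the calls of TFPI and JAK1.

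Genes that handle factor V were tested with the coagulation list. LMAN1 and MCFD2 form the cargo receptor that carries factors V and VIII from the endoplasmic reticulum to the Golgi, and both rose. LMAN1 stood at 198 ± 9.83 CPM in vehicle and 485 ± 32.2 at 10 nM (SD, n = 3), a log2 difference of 1.30 ± 0.058 (SE, edgeR adjusted p = 2.08e-12). It was also higher at 0.1 nM, by 0.57 ± 0.058 (adjusted p = 4.12e-07 in edgeR). MCFD2 rose from 60.1 ± 2.45 to 115 ± 2.44 CPM, by 0.94 ± 0.057 (adjusted p = 1.41e-10 in edgeR).
F8, the gene of factor VIII, which uses the same receptor and resembles factor V in structure, fell. It went from 25.6 ± 1.03 to 14.5 ± 1.56 CPM, a log2 difference of -0.82 ± 0.076 (adjusted p = 4.89e-08 in edgeR). VWF, the carrier of factor VIII in plasma, fell by 1.55 ± 0.15 on the log2 scale, from 18.7 ± 1.75 to 6.42 ± 1.33 CPM, and its 0.1 nM level of 18.1 CPM gave an adjusted p of 0.791 against vehicle in edgeR.

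Of the 14 tested coagulation and fibrinolysis genes, 4 rose and 6 fell at 10 nM (29.3% and 28.3% of all genes). Their median log2 difference was -0.42. The others that rose were SERPIND1, the thrombin inhibitor heparin cofactor II, from 0.437 ± 0.135 to 2.49 ± 0.967 CPM (2.49 ± 0.30 on the log2 scale), and TFPI, the inhibitor of the tissue factor pathway, from 134 ± 13.9 to 169 ± 18.0 CPM (0.34 ± 0.082, adjusted p 0.00159 in edgeR and 0.190 with library totals). PROCR, the endothelial protein C receptor, which has an MHC class I fold, fell from 2.16 ± 0.234 to 0.857 ± 0.133 CPM (-1.34 ± 0.20). F3, which encodes tissue factor, did not pass the filter, with 35 counts in vehicle and 24 at 10 nM. Other genes of the list that did not pass it went both ways, with no test. F13A1, a subunit of factor XIII, had 0 counts in vehicle and 34 at 10 nM, and SERPINF2, the plasmin inhibitor, had 3 and 18. Both were picked after their values were seen. In the other direction F7 had 27 and 6 counts, F2 15 and 6, PROZ 12 and 1, SERPINC1 10 and 2, and F10 8 and 1. F5 is not a member of this list.

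Other acute-phase proteins were taken as a list. Of its 22 genes 19 were in the table and 7 passed the filter. Among these 1 rose and 2 fell at 10 nM (29.3% and 28.3% of all genes), with a median log2 difference of -0.43. HPX, the plasma carrier of haem, rose from 0.405 ± 0.167 to 1.43 ± 0.261 CPM (1.83 ± 0.33, adjusted p = 0.000136 in edgeR). CP, which encodes the copper carrier ceruloplasmin, fell from 1.01 ± 0.293 to 0.129 ± 0.0883 CPM (-2.998 ± 0.45). The protease inhibitor A2M fell from 30 counts in vehicle to 0 at 10 nM, at least 10.0-fold lower against a floor of 3 counts over the group.
SERPINA1, which encodes alpha-1-antitrypsin, stood at 0.306 ± 0.155 and 0.146 ± 0.0150 CPM (adjusted p = 0.0655 in edgeR, 0.0410 with the replicate block), and HPR at 8.24 ± 0.214 and 7.26 ± 0.386 CPM (adjusted p = 0.0760, 0.0422 with the block). LCN2, which is both acute-phase protein and lipocalin, was at 0.201 ± 0.288 and 0.220 ± 0.235 CPM (adjusted p = 0.864). SERPINA3 had 1 count in vehicle and 2 at 10 nM. The number that fell was 4 with library totals or the replicate block and 1 with a stricter filter or with only the libraries compared.

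Of the regulators of acute-phase genes, 6 of 15 tested rose and 5 fell at 10 nM (29.3% and 28.3% of all genes). Their median log2 difference was 0.15. The largest rise was that of LIFR, a receptor for leukaemia inhibitory factor in the interleukin-6 family, from 36.7 ± 3.01 to 417 ± 6.47 CPM (3.51 ± 0.080, adjusted p = 3.61e-16 in edgeR). At 0.06 nM it was at 38.9 CPM and at 0.1 nM at 64.1 CPM. IL6R, a subunit of the interleukin-6 receptor, rose from 40.2 ± 0.829 to 64.4 ± 2.42 CPM. Its signalling subunit IL6ST stood at 181 ± 10.97 and 162 ± 10.7 CPM (adjusted p = 0.0663 in edgeR, 0.00610 with the replicate block). It was also called lower at 10 nM with library totals (adjusted p = 8.01e-05), a stricter filter (0.0203) and only the libraries compared (0.0393). The same held without the 5 libraries numbered 3 (0.0133) and without some single libraries. IL6ST was called lower at 0.06 nM (135 CPM, adjusted p = 0.000179 in edgeR) and 0.1 nM (128 CPM, adjusted p = 2.02e-05), and higher at 10 than at 0.1 nM (0.34 on the log2 scale, adjusted p = 0.00084).
IL1R1, an interleukin-1 receptor, rose by 0.90 ± 0.081 on the log2 scale, the transcription factor STAT3 by 0.61 ± 0.065, CEBPD by 1.11 ± 0.13 and the kinase JAK1 by 0.29 ± 0.11. The call of JAK1 (adjusted p = 0.0380 in edgeR) was lost when any 1 of vehicle libraries 2 and 3 or the 10 nM libraries was left out (adjusted p 0.0612 to 0.164). JAK1 was called lower than in vehicle at 0.06 nM (-0.35, adjusted p = 0.0308 in edgeR) and 0.1 nM (-0.43, adjusted p = 0.00756), and neither call held without vehicle library 4 (adjusted p = 0.202 and 0.0613). CEBPB was at 30.2 ± 7.002 and 34.04 ± 2.40 CPM (adjusted p = 0.266 in edgeR), and was called higher without the vehicle library numbered 3 (0.37, adjusted p = 0.00706). NR3C1, the glucocorticoid receptor, fell from 0.775 ± 0.236 to 0.144 ± 0.0805 CPM (-2.34 ± 0.47). Others that fell included SOCS3, a feedback inhibitor of STAT signalling (-2.87 ± 0.50), ONECUT1 (-2.16 ± 0.51) and CEBPA (-0.53 ± 0.063). With a stricter filter 3 fell.

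The lipocalins, the family of the orosomucoids, had 5 tested genes, of which 1 rose and 2 fell (29.3% and 28.3% of all genes). Their median of 0.23 has the opposite sign to the balance of calls. It is the value of LCN2 (SE 1.05), which has few counts and was not called. APOD, a lipocalin that binds steroids and lipids, rose from 8.04 ± 0.731 to 14.7 ± 1.58 CPM (0.87 ± 0.14). LCN12 fell from 4.15 ± 0.410 to 1.82 ± 0.0910 CPM (-1.19 ± 0.15) and APOM, a carrier of sphingosine phosphate, from 1.32 ± 0.155 to 0.693 ± 0.108 CPM (-0.94 ± 0.20).

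Of 16 tested genes with the MHC class I fold or its light chain, 1 rose and 9 fell (29.3% and 28.3% of all genes). Their median log2 difference was -0.48. The one that rose was B2M, the light chain of class I molecules, from 140 ± 9.24 to 441 ± 18.9 CPM (1.66 ± 0.069, adjusted p = 7.16e-13 in edgeR). AZGP1 has the fold of the heavy chain and does not need this light chain. The iron regulator HFE fell from 8.08 ± 0.178 to 2.91 ± 0.414 CPM (-1.47 ± 0.11), and MR1, which presents vitamin metabolites, from 19.2 ± 1.19 to 10.6 ± 0.943 CPM (-0.85 ± 0.090). PROCR, which is in this list as well, is given above. Without a low-count filter 2 genes of this list rose.

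Of 22 other proteins that the liver puts into plasma, 6 passed the filter. At 10 nM 0 of these rose and 2 fell in edgeR, where 29.3% of all genes rose and 28.3% fell. The number that rose was also 0 at an unadjusted p under 0.05 in edgeR, and in DESeq2. The number that fell was 1 with a stricter filter, without vehicle library 4 or without 10 nM library 3. CLU, which encodes the chaperone clusterin and is expressed in many tissues, fell from 45.5 ± 3.23 to 30.2 ± 3.01 CPM (-0.59 ± 0.082, adjusted p = 6.46e-06 in edgeR). ALB, the gene of albumin, was at 0.827 ± 0.519 and 0.253 ± 0.131 CPM (-1.76 ± 0.63, adjusted p = 0.0240 in edgeR). Its call was lost without vehicle library 2 (adjusted p = 0.130), vehicle library 4 (0.0605) or 10 nM library 3 (0.103). TTR, which carries thyroid hormone, was at 1.32 ± 0.453 and 1.33 ± 0.344 CPM (adjusted p = 0.983). At lower doses 2 of the 6 were called higher at 0.06 nM (16.9% of all genes) and 1 at 0.1 nM (21.5%). CLU was lower at both. TTR was at 2.40 ± 0.454 CPM at 0.06 nM (0.87 ± 0.25, adjusted p = 0.0111 in edgeR, 0.0595 without vehicle library 3). AHSG, the gene of fetuin-A, was called higher at 0.06 nM (0.337 CPM against 0.138, adjusted p = 0.0428) and 0.1 nM (0.359 CPM, adjusted p = 0.0290). Both calls of AHSG were lost in DESeq2 (adjusted p = 0.0916 and 0.0615) and without single libraries.

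Secretory proteins of the prostate and other glands had 8 tested genes, of which 6 rose and 2 fell (29.3% and 28.3% of all genes). Their median log2 difference was 0.95. KLK4, a protease of prostatic fluid, rose from 31.8 ± 6.87 to 183 ± 27.5 CPM (2.53 ± 0.18), ZG16B from 76.3 ± 4.28 to 170.0 ± 10.9 CPM (1.16 ± 0.075) and CRISP3 from 0.577 ± 0.195 to 1.34 ± 0.202 CPM (1.22 ± 0.26). LTF, the gene of lactoferrin, fell from 1.27 ± 0.423 to 0.245 ± 0.0476 CPM (-2.33 ± 0.37), and ACP3, prostatic acid phosphatase, from 194 ± 13.7 to 122 ± 15.9 CPM (-0.67 ± 0.083). KLK4 was at 144 CPM at 0.1 nM, and its difference between 10 and 0.1 nM did not pass the test (0.35, adjusted p = 0.100 in edgeR) but did with the replicate block (0.35, adjusted p = 5.97e-07), without a low-count filter (1.57e-07), without the 5 libraries numbered 3 (3.33e-05), with only the libraries compared (0.0488) and without 0.1 nM library 3 (0.49, adjusted p = 0.0353).

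**Figure D3:**
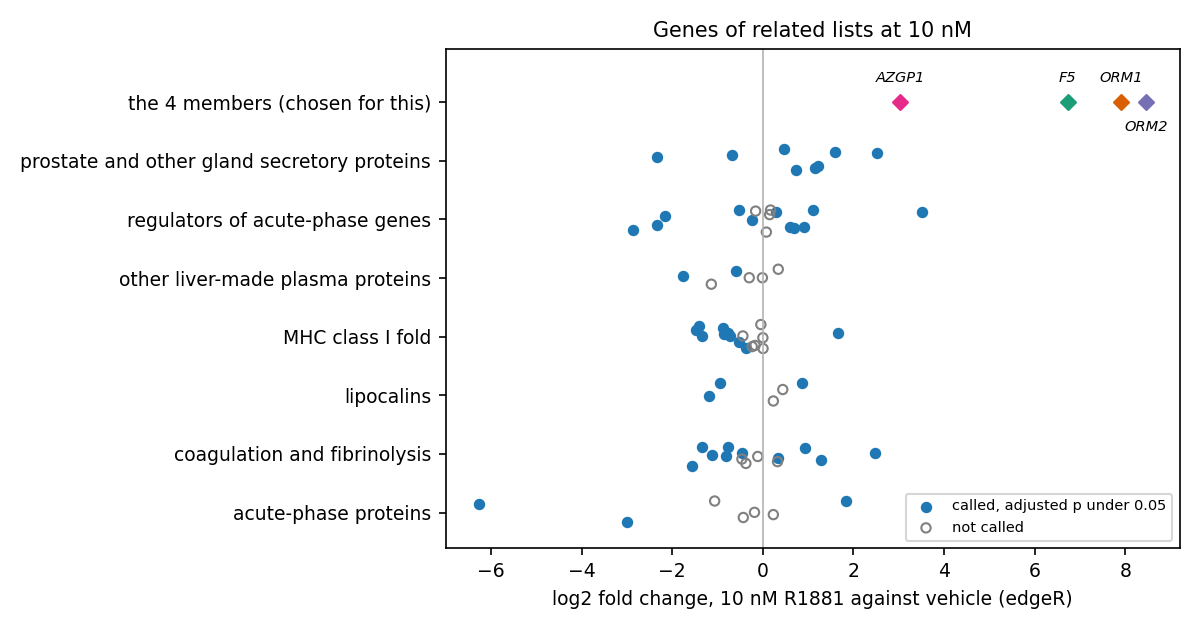
Log2 difference between 10 nM and vehicle (edgeR) for each tested gene of the 7 lists, filled where called and open where not, with the 4 members above them. The members were chosen for this value, and those of ORM1 and ORM2 rest on 3 vehicle counts and depend on the prior count. SERPIND1 and HPX, at 2.49 and 1.83, are the highest of the coagulation and acute-phase genes, LIFR the highest regulator at 3.51, and A2M, with 0 counts at 10 nM, lies farthest left.

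The genes next to the members did not move as 1 group. COL27A1, a collagen gene 10544 bases before ORM1, fell from 3.56 ± 0.357 to 0.807 ± 0.101 CPM at 10 nM (-2.15 ± 0.18, adjusted p = 1.04e-08 in edgeR). AKNA, on the opposite strand 903 bases past ORM2, stood at 7.71 ± 0.117 and 8.28 ± 0.748 CPM (0.11 ± 0.098, adjusted p = 0.373). The protein-coding gene nearest to F5, SELP, 2260 bases away, is not in the table. On the other side of F5, SLC19A2, a thiamine transporter 28162 bases away on the same strand, rose from 40.9 ± 4.41 to 89.4 ± 7.61 CPM (1.13 ± 0.080, adjusted p = 1.20e-09). It was already higher at 0.03 nM, at 55.9 CPM (0.45 ± 0.080, adjusted p = 0.00139 in edgeR).
GJC3, a connexin gene 37099 bases from AZGP1, rose from 0.206 ± 0.0362 to 0.650 ± 0.0819 CPM (1.66 ± 0.38, adjusted p = 0.00105 in edgeR). ZKSCAN1, a zinc finger gene 39414 bases away on the other side, fell from 362 ± 28.4 to 268 ± 4.73 CPM (-0.43 ± 0.056, adjusted p = 3.25e-06).

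The pseudogene AZGP1P1 lies 4604 bases from AZGP1 on the plus strand, and a transcript of it of 902 bases matched that of AZGP1 at 90.2% of positions. Another, of 1181 bases, aligned over 349 bases, with 84.0% of them identical. AZGP1P1 rose from 0.640 ± 0.108 to 7.34 ± 0.424 CPM at 10 nM (3.51 ± 0.18, adjusted p = 1.12e-11 in edgeR). Its part of the counts of gene and pseudogene together was 4.55% to 5.79% in the vehicle libraries and 6.64% to 7.14% at 10 nM, which did not overlap. Since 13.04% of the 50-base windows of the AZGP1 transcript also occur in the pseudogene, reads of one may have been counted for the other, and the extent of this was not tested. A second pseudogene, AZGP1P2, was at 0.259 ± 0.0516 and 0.324 ± 0.161 CPM (adjusted p = 0.456).

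**Figure D4:**
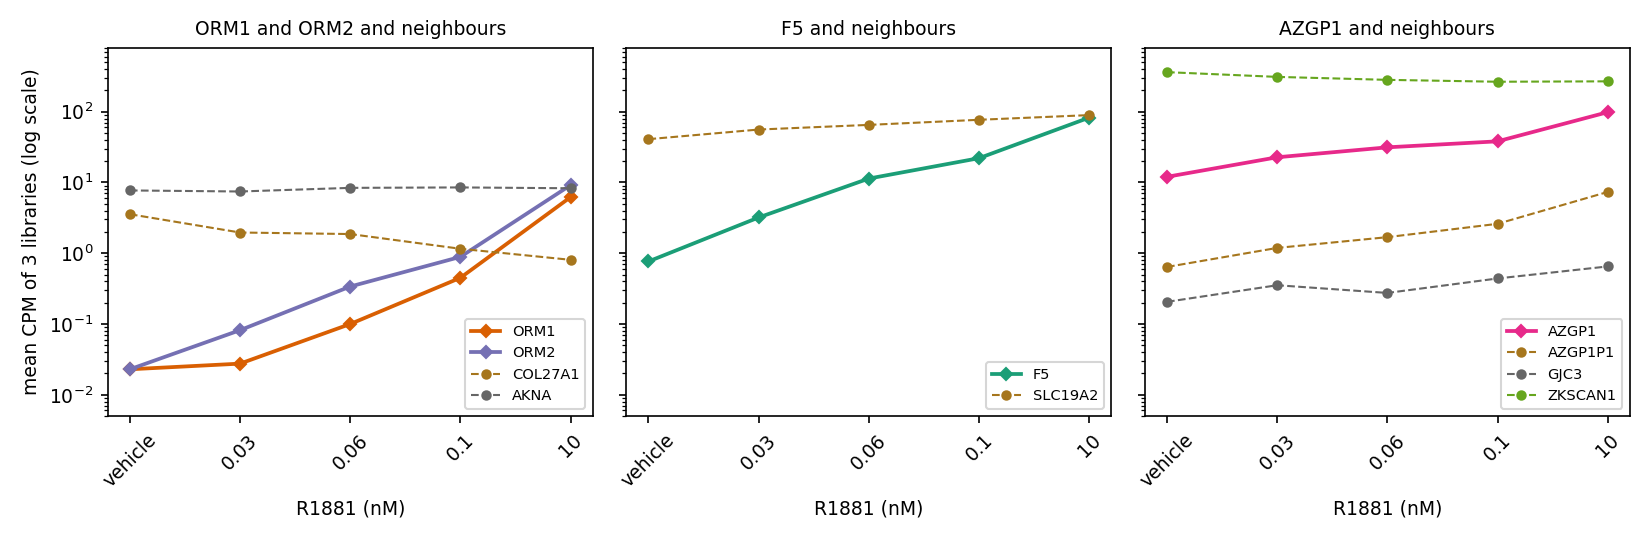
Mean CPM of 3 libraries (log axis) by R1881 dose (evenly spaced) for the members (solid lines) and for the nearest protein-coding genes in the table and the pseudogene AZGP1P1 (dashed lines). COL27A1 falls from 3.56 to 0.807 CPM while ORM1 and ORM2 reach 6.21 and 9.17 CPM, SLC19A2 goes from 40.9 to 89.4 CPM beside F5, and AZGP1P1 goes from 0.640 to 7.34 CPM beside AZGP1.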

How the data were processed

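The values are raw whole-number counts per Ensembl gene as deposited by the authors, 1 column per library, per the file headers. Per the labels, libraries were made with a KAPA stranded kit, and the submitters' processing notes name Trimmomatic 0.39, STAR 2.7.8a, DESeq2 1.36.0 and GRCh38/hg38. The read counter, annotation and strand setting are not given in the sources used here. Of 70 genes named by the rules below, 4 lie over another gene of their own strand and 25 over one of the other strand (among them LIFR, IL6R, IL1R1, MCFD2, F8, CP and SERPIND1). Overlap was taken over whole genes, introns included. Where exons overlap, reads of same-strand pairs may not be told apart. Reads of opposite-strand pairs can be told apart only if they were counted by strand, which is not known here. The 15 columns of the VCaP table match no label and were not used, so the planned VCaP comparison was not run.

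Identifiers, versions removed, matched a table of symbols for 37732 genes and GENCODE 29 for 36632. In R 4.3.3, edgeR 4.0.16 was run with TMM, filterByExpr and quasi-likelihood fits to 15 libraries (1 mean per group), with two-sided tests and Benjamini-Hochberg adjustment over 18403 genes. The tests were checked on simulated data. Depth was 30666460 to 61199483 counts per library, and intervals cover counting error only. P-values measure the spread between these libraries, which may be technical. Members and lists were chosen with earlier results of these data known.

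Genes named besides the members were up to 4 called genes per list with the largest difference and at least 1 CPM in a group, topped up by the list genes of highest level; a fixed set (KLK3, LMAN1, MCFD2, B2M, NR3C1, CEBPB, CEBPD, STAT3, IL6ST, F3, F8, SERPINA1, SERPINA3, LCN2, ALB); the 3 genes most like each member; and neighbours and pseudogenes. A2M, TFPI, ACP3, SOCS3, ONECUT1, CEBPA, JAK1, AHSG, F13A1 and SERPINF2 were named after their values were seen, to complete a count. F2, F7, F10, PROZ and SERPINC1 were also named after their values were seen, and are not among the genes checked for overlap. Some genes that these rules name are not reported here. Alternatives were RLE size factors, library totals, DESeq2 1.42.0, no filter, a stricter filter (1 CPM in 3 libraries, mean count 20), the replicate block, only the libraries compared, each library left out, and the 5 libraries numbered 3 left out. The replicate numbers, read from the column names, pair the samples. Deviations from group means correlated at 0.231 to 0.710 in 30 same-numbered pairs, against -0.615 to 0.295 in 60 others, over 11045 genes. The main fits leave this pairing out, and only the replicate block takes it into account.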

Additional observations from a re-analysis of the deposited data

How the results depend on the processing

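Of 2308 values recomputed under alternatives, 2118 kept their call or stayed within the spread (counts within 1.5 times), 190 moved and 0 reversed. The 349 member values among them are sizes (differences, count ratios and shares), not calls; the call of ORM1 at 0.06 nM was lost under several alternatives named above. Of these sizes 5 moved, all with library totals: the log2 difference of F5 between 10 and 0.1 nM was 1.75, and the share of the 10 nM difference was 10.5% for ORM2, 29.1% for F5 and 33.7% for AZGP1 at 0.1 nM, and 25.5% for AZGP1 at 0.06 nM. Without the 5 libraries numbered 3 the 10 nM log2 difference was 7.14 for F5 and 3.13 for AZGP1, and the count ratio 251 for ORM1 and 383 for ORM2. With all libraries these were 6.73, 3.03, 275 and 403. The values without the libraries numbered 3 were not counted as moved, but lay outside the ranges with 1 library left out. Those ranges were 6.45 to 7.07 for F5, 2.96 to 3.12 for AZGP1, 255 to 292 for ORM1 and 389 to 410 for ORM2. At 0.03 nM 1588 genes were called, 3195 with the replicate block, 1008 with only the libraries compared, and 979 to 1650 with 1 library left out (979 without vehicle replicate 4). List genes called higher there were 5, but 11 with the block, 8 without a filter, 3 with only the libraries compared and 3 to 6 with 1 library left out; those called lower were 3, but 10 with the block and 1 to 4 with 1 library left out (1 without 0.03 nM replicate 4). Between 10 and 0.1 nM 19 list genes were higher and 10 lower; library totals gave 12 and 17 (2164 higher and 5994 lower of all genes, against 3787 and 3589), and the block gave 16 lower. Counts of 0 to 5 per library limit both orosomucoids in vehicle and at 0.03 nM.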
